A study of Mus musculus with 67 samples.

Results

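The genes described here carry the names of nuclear-encoded subunits of the mitochondrial respiratory chain and of ATP synthase. They were taken by name from the deposited expression table of a mouse liver study: symbols beginning with Nduf and a subunit letter and number, Sdha to Sdhd, and symbols beginning with Uqcr, Cox4 to Cox8 or Atp5. Names holding af (assembly factors), -ps (pseudogenes) or os (antisense genes) were left out. Names alone decided, so Atp5s, which is not a core subunit, and Atp5sl are counted with complex V. This gave 84 of 45808 genes, of which 37 belong by name to complex I, 4 to complex II, 8 to complex III, 18 to complex IV and 17 to complex V. A further 4 names ending in -ps were left out. Of the 84, 75 had a mean of at least 1 FPKM (sequenced fragments scaled to transcript length and to a depth factor of the library) over all libraries and were tested.

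The study sequenced polyadenylated RNA from the livers of C57BL/6 mice that were 24 weeks old and had spent 12 weeks on a high-fat diet, so all groups shared that diet. Feeding was either ad libitum or time-restricted, and the hours of the feeding window are not stated in the labels. The WT mice gave 12 ad libitum and 11 restricted libraries, with 2 at each of ZT4, 8, 12, 16, 20 and 24 except restricted ZT12, which had 1. ZT is zeitgeber time, in hours after lights on. Bmal1LKO mice lack the clock activator Bmal1 in the liver and gave 6 libraries per feeding group, 1 at each of those times. CryDKO mice lack both cryptochromes, Cry1 and Cry2, and ReverbLDKO mice lack the nuclear receptors Rev-erb alpha and beta in the liver; each gave 8 libraries per feeding group, 1 every 3 h from ZT3 to ZT24. Which Cre driver was used in the liver knockouts is not stated. Whether each library is a different animal is not labelled, and p-values then reflect only the spread between libraries, which may be technical. In bulk liver, fewer cells of a type and less RNA per cell cannot be told apart.

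The respiratory chain passes electrons from NADH through complex I, or from succinate through complex II, to ubiquinone, then through complex III and cytochrome c to complex IV, where oxygen is reduced. Complexes I, III and IV pump protons out of the mitochondrial matrix, and ATP synthase, complex V, uses their return to make ATP. Complex II is built from nuclear genes alone, whereas the others combine nuclear subunits with a few made from mitochondrial DNA. Hepatocytes rely on this system for gluconeogenesis, urea synthesis and the oxidation of fat.

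Promoters of these genes are known for sites of NRF1, ETS factors such as GABP, YY1 and the estrogen-related receptors (ERR). RefSeq start-site windows (build GRCm38.p6, 250 bases before to 50 after the start) were matched to 69 of the 84 genes, in 75 windows, and were searched on both strands for the letters of known motifs. The NRF1 letters stood in 24.0% of the 75 windows and in 4.6% of all 32817 windows of the same length. CCGGAAG (ETS) stood in 21.3% against 8.9%, AAGATGGC (YY1) in 12 of the 75 windows against 2.7%, and AAGGTCA (ERR) in 10.7% against 4.7%. At least 1 of these 4 stood in 54.7% against 18.9%. The shares were closer for CCAAT (42.7% against 37.4%), the E-box CACGTG bound by clock factors (12.0% against 7.1%), the Sp1 letters GGGCGG (38.7% against 35.6%) and TATAAA (10.7% against 13.6%). In 1 gene an ETS match overlapped an Sp1 match, and no other overlap with the NRF1, ETS, YY1 or ERR letters was found. YY1 letters were found in 7 of 32 matched complex I genes, 4 of 16 of complex V and none of complexes II, III and IV. A match is a description of the letters and not a bound site.

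The sequences below belong to genes that the comparisons turn on: Atp5h and Uqcrh were lower in CryDKO than in WT under restricted feeding, Sdhd and Sdhb are complex II subunits called in several comparisons, and Uqcr11, Cox8a and Ndufs7 had wide differences with feeding in WT. Each is a stretch of at most 120 bases before the RefSeq start that touches no annotated exon on either strand. It is read 5′ to 3′ on the gene's strand and need not be the one nearest the start. The Ndufs7 stretch ends 137 bases before the RefSeq start. It lies within the annotated span of that gene (chr10:80249121-80256794), between annotated exons, and not upstream of the whole gene. Capitals mark matches: NRF1 and CCAAT in Atp5h, ETS and CCAAT in Uqcrh, ETS in Sdhd and Uqcr11, and Sp1 in Sdhb. None of these letters was found in the stretches of Cox8a and Ndufs7, though the full windows held ETS letters for Cox8a and YY1 letters for Ndufs7.
Atp5h, chr11:115419963-115420082, minus strand: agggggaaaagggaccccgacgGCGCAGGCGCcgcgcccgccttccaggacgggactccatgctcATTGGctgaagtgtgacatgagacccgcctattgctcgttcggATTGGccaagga
Uqcrh, chr4:116075072-116075191, minus strand: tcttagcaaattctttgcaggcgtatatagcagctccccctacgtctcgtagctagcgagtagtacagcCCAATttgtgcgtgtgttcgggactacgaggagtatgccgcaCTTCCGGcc
Sdhd, chr9:50603850-50603909, minus strand: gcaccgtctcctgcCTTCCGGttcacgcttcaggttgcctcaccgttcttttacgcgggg
Sdhb, chr4:140961083-140961202, plus strand: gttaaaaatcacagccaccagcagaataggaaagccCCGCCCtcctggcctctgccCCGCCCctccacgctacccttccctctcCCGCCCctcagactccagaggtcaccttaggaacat
Uqcr11, chr10:80406831-80406950, minus strand: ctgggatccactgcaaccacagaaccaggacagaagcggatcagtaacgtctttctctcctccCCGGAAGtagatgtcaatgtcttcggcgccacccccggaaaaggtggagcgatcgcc
Cox8a, chr19:7217617-7217736, minus strand: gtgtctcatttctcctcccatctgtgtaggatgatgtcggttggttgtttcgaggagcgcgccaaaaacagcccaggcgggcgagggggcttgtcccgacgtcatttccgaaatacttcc
Ndufs7, chr10:80249205-80249311, plus strand: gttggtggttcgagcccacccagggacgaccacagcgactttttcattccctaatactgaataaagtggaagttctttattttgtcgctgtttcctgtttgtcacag

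The libraries held 9.32 to 36.79 M reads, as recovered from the steps of the low FPKM values, with group medians of 13.12 to 20.56 M. The transcripts of Cry1 (6.65 to 14.28 FPKM in the libraries labelled CryDKO, 1.66 to 23.01 in WT) and Nr1d1 (4.82 to 71.78 FPKM in those labelled ReverbLDKO, 0.12 to 33.34 in WT) were present in the mutants, so gene-level values do not check those labels. Arntl, the Bmal1 gene, had a median of 3.18 FPKM in Bmal1LKO (2.00 to 7.09) and 7.29 in WT (0.42 to 12.61). The ranges overlapped, so Arntl does not clearly check that label either. WT libraries differed from the mutants in how levels depended on GC content. The slope across all tested genes had a median of 0.306 log2 per 10 points of GC in ad libitum WT, −0.541 in restricted WT (range −1.16 to 0.055) and −0.051 to 0.144 in the mutant groups. In restricted WT this slope was −0.382 to 0.055 in replicate 1 and −1.16 to −0.541 in replicate 2. One ad libitum WT library, library 2 of ZT16, stood apart: the summed FPKM of the 84 genes was 52146 there against a group median of 11383, and 74 of the 84 genes had their highest ad libitum WT value in it. Its slope against exon length was −0.554 log2 per doubling, the lowest of all groups. Across the 67 libraries the median deviation of the tested respiratory genes followed the length slope, with r = −0.95, and −0.85 after each library was corrected for GC content and length. With the GC slope r was −0.06. These points share libraries and genes, so each r is a description. Group medians of the length slope, ad libitum and restricted, were −0.076 and −0.018 in WT and 0.009 and −0.104 in Bmal1LKO. They were 0.068 and 0.084 in CryDKO and 0.054 and 0.096 in ReverbLDKO. The part of this slope in the group differences was not tested. Results are therefore given with that correction and without ad libitum WT library 2 of ZT16 where these change them. Shares of all genes called under these and other alternative settings are not given here. Such counts therefore do not show whether these genes moved more than others.

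Levels here are medians over the 67 libraries, and values near 0 were found among tissue isoforms of complex IV and copy-sharing genes of complex V. In complex I, Ndufa4 had the highest level, 608 FPKM. Its protein is now assigned to complex IV. The paralog Ndufa4l2 was lowest at 1.13 FPKM. Ndufv1, which holds the NADH site, stood at 62.5 FPKM and Ndufs1, which carries iron-sulfur clusters, at 21.3. In complex II the levels were 212 FPKM for the membrane anchor Sdhd, 134 for the flavoprotein Sdha, 112 for the iron-sulfur subunit Sdhb and 58.1 for the anchor Sdhc. In complex III, Uqcr10 (183 FPKM) and the Rieske protein Uqcrfs1 (173) were near the top and the core protein Uqcrc1 lowest at 28.8. In complex V the catalytic-core subunits Atp5a1 (362 FPKM) and Atp5b (325) led. Neighbours in these orders, such as Uqcr10 and Uqcrfs1, had ranges over libraries that overlapped. All annotated exons of a gene together span 584 bases for Uqcr10 and 4135 for Uqcrc1. The part of that length in these orders was not tested.

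Complex IV showed which isoforms the liver uses. Cox6b1 (472 FPKM), Cox6a1 (253), Cox4i1 (229), Cox7a2 (217) and Cox8a (199) were high. Their counterparts were low: Cox4i2, the lung isoform, stood at 0.104 FPKM, the testis isoform Cox6b2 at 0.103, and the heart and muscle isoforms Cox6a2 at 0.047, Cox7a1 at 2.46 and Cox8b at 0. Cox7b2 and Cox8c, both testis isoforms, were listed at 0 in all 67 libraries. Cox7a2l, a factor of respiratory supercomplexes, stood at 39.5 FPKM. Some low values belong to core subunits whose transcripts have near-identical copies elsewhere. Cox7c stood at 1.38 FPKM with 53.0% of its 50-base transcript windows shared with another gene, Atp5l at 0.489 with 84.8%, Atp5g1 at 0.766 with 66.0% and Atp5g2 at 0.195 with 100%. Atp5g3, another gene for the c subunit that Atp5g1 and Atp5g2 encode, stood at 214 FPKM. Their annotated exons span 4912 bases for Atp5g1, 1675 for Atp5g2 and 2181 for Atp5g3. Those of Atp5l span 6443 and those of Cox7c 1131. The part of length in these levels was not tested. Levels of the copy-sharing genes are uncertain, since the treatment of multi-mapping reads by the authors is not stated in the labels. Nor is it stated whether counting used strand, so reads of overlapping antisense genes cannot be told apart. The 9 genes not tested were Cox4i2, Cox6a2, Cox6b2, Cox7b2, Cox8b, Cox8c, Atp5g1, Atp5g2 and Atp5l.

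**Figure D1:**
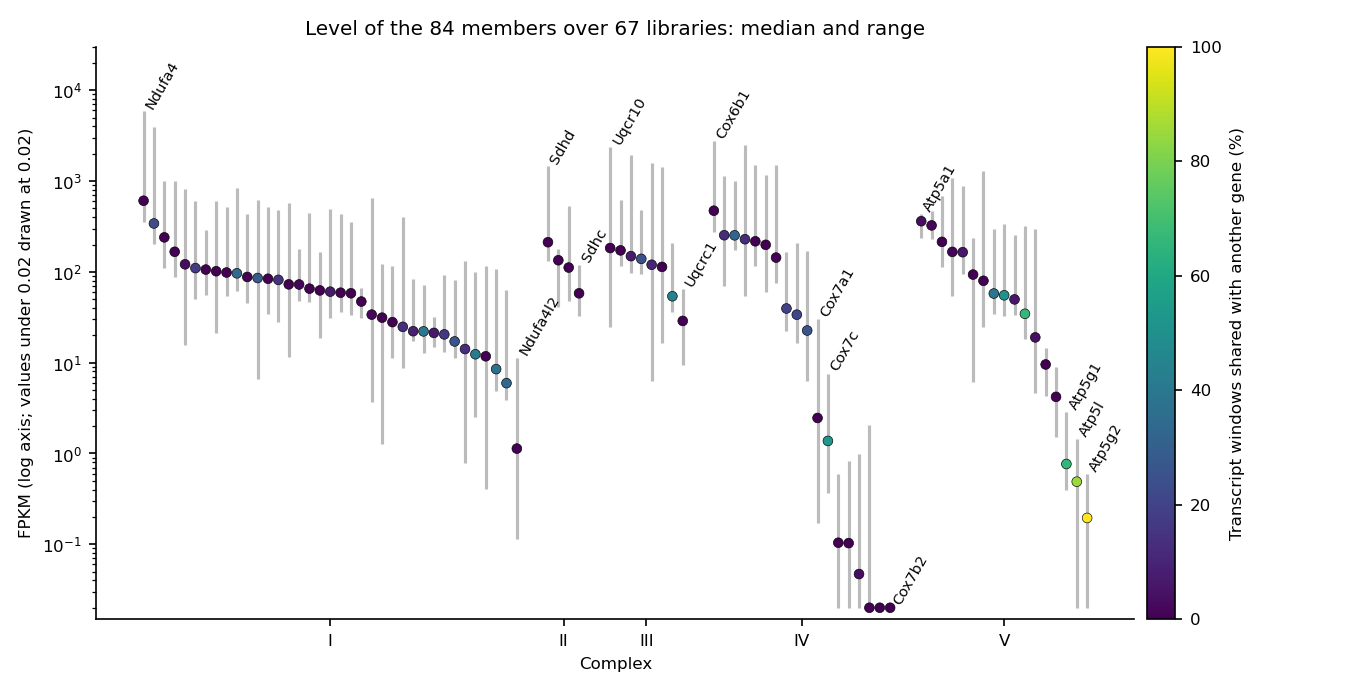
Level of each of the 84 genes, by complex and in falling order; the point is the median and the grey line the range over 67 libraries, on a log FPKM axis with values under 0.02 drawn at 0.02, and colour gives the percent of 50-base transcript windows shared with another gene. Ndufa4 leads at a median of 608 FPKM, while Cox4i2, Cox6a2, Cox6b2, Cox7b2, Cox8b and Cox8c lie at or below 0.104.

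CryDKO livers under ad libitum feeding had lower levels of most subunits of complexes I, III, IV and V than WT livers. Of the 75 genes tested, 64 were lower and 2 higher at an adjusted p under 0.05, against 30.7% of all 9958 genes tested that were lower and 24.8% that were higher. The median log2 difference was −0.75 over the 75 and −0.05 over all genes. By complex, 35 of 37 genes were lower in complex I, 2 of 4 in complex II, 7 of 8 in complex III, 10 of 12 in complex IV and 10 of 14 in complex V. The summed FPKM of all 84 genes had a lowest, median and highest of 6759, 7081 and 7598 in CryDKO and 7154, 11383 and 52146 in WT. In 23 genes every CryDKO library lay below every WT library, as 4.72% of all tested genes did.

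The widest falls in complexes I, III, IV and V were in small subunits. Ndufa13 (also called GRIM-19), an accessory subunit of complex I, had a lowest, median and highest of 53.8, 57.9 and 60.4 FPKM in CryDKO and 100, 170 and 624.8 in WT. The groups did not overlap, and the log2 difference was −1.59 ± 0.29 (SE, adjusted p = 1.34e-05). The gene (chr8:69894180-69902558, minus strand, GRCm38) overlaps Tssk6 on the other strand over 30.0% of its exon bases. Uqcrq (chr11:53427922-53430831, minus strand), a small subunit of complex III, stood at 91.3, 98.5 and 103 FPKM in CryDKO and 132, 243 and 1441 in WT. No library overlapped, and the difference was −1.36 ± 0.25 (adjusted p = 1.71e-05). Cox5b (chr1:36691449-36693681, plus strand), a zinc-binding subunit of complex IV, stood at 16.7, 18.3 and 19.95 FPKM in CryDKO against 31.6, 41.4 and 170 in WT, again with no overlap (−1.33 ± 0.18, adjusted p = 1.01e-07). Atp5j2 (chr5:145183698-145192062, minus strand), the f subunit of ATP synthase, had the widest fall of the 75 genes. Its values were 15.7, 17.4 and 18.9 FPKM in CryDKO and 27.5, 58.2 and 294 in WT, and the difference was −1.67 ± 0.24 (adjusted p = 2.29e-07). Cox4i1, the main isoform of a regulatory complex IV subunit, fell by 1.03 ± 0.27 (adjusted p = 0.00115).

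The large catalytic subunits did not all move this way. Sdha (chr13:74322254-74350280, minus strand), the succinate-oxidizing flavoprotein, was higher in CryDKO, at 116, 148 and 165 FPKM against 41.2, 102 and 172 in WT. The groups overlapped, and the log2 difference was 0.52 ± 0.13 (adjusted p = 0.00109). Ndufs1 (chr1:63143596-63176833, minus strand) was also higher, at 18.8, 22.3 and 24.3 FPKM against 14.9, 17.1 and 21.9, a difference of 0.29 ± 0.07 (adjusted p = 5.36e-04). The groups overlapped there too. The complex II anchor Sdhd fell by 0.61 ± 0.20 (adjusted p = 0.011), with 170, 195 and 224 FPKM in CryDKO and 169, 276 and 1461 in WT. Ndufv1 fell by 0.55 ± 0.16 and Uqcrc1 by 0.38 ± 0.14. Neither ATP synthase core subunit passed: Atp5a1 differed by −0.04 ± 0.08 (adjusted p = 0.653) and Atp5b by −0.17 ± 0.08 (adjusted p = 0.0838).

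With the correction for GC content and length, 42 genes were lower and 4 higher in CryDKO, all 42 being among the 64, and the median difference was −0.36. By complex the lower genes were then 24, 0, 4, 8 and 6 in complexes I to V, so no complex II gene was lower. Ndufa13, Uqcrq, Cox5b, Atp5j2 and Sdha passed with the correction (−0.98, −0.95, −0.91, −1.52 and 0.55), while Ndufs1 (0.07, adjusted p = 0.445), Sdhd (−0.13, adjusted p = 0.252), Ndufv1 (−0.22, adjusted p = 0.0598) and Uqcrc1 (−0.25, adjusted p = 0.0517) did not, and Atp5a1 was then higher (0.20, adjusted p = 0.00806). Without ad libitum WT library 2 of ZT16, 58 genes were lower and 2 higher. Scaling every library to the same summed FPKM moved the median of all genes by over 0.1 log2 in several comparisons, to 0.162 here, 0.253 for ReverbLDKO and 0.243 for Bmal1LKO against WT ad libitum, 0.112 and 0.129 for CryDKO and ReverbLDKO against WT restricted, and −0.138 and −0.116 for the feeding difference in ReverbLDKO and Bmal1LKO. Under that scaling 50 of the 75 genes were lower and 2 higher in CryDKO, and Atp5a1 (0.23) and Atp5b (0.11) turned to values above 0 without passing.

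Under restricted feeding, CryDKO and WT differed in both directions. Of the 75 genes, 34 were lower and 12 higher in CryDKO, against 27.8% of all genes lower and 33.7% higher, and the median difference was −0.34 against 0.03 over all genes. Complex I had 18 lower and 5 higher, complex II 1 lower, complex III 4 and 4, complex IV 5 lower and 1 higher, and complex V 6 lower and 2 higher. All CryDKO libraries lay below all WT libraries in 8 genes (Ndufa4, Ndufs4, Ndufb2, Cox5a, Cox6c, Atp5g3, Atp5j and Atp5h), as in 3.33% of all genes. This comparison and the ad libitum one use different WT libraries, but the comparisons of the 3 mutants under 1 feeding regime share theirs.

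Atp5h, the d subunit of the ATP synthase stalk, stood at 18.4, 26.6 and 34.6 FPKM (lowest, median, highest) in restricted CryDKO and 43.1, 67.9 and 172 in restricted WT. The groups did not overlap, and the difference was −1.37 ± 0.22 (adjusted p = 7.39e-07). Of its transcript windows 66.6% are shared with other genes. Ndufa4 stood at 354, 477 and 544 FPKM against 608, 1032 and 3091, also without overlap (−1.15 ± 0.25, adjusted p = 1.09e-04). The complex IV subunit Cox6c fell by 0.89 ± 0.21 (adjusted p = 3.28e-04), and the hinge protein of complex III, Uqcrh, by 1.26 ± 0.27 (adjusted p = 1.40e-04). Higher in CryDKO were Ndufs7, Uqcr11, Atp5d and Cox8a, all rich in GC. Ndufs7, which carries the last iron-sulfur cluster before ubiquinone, stood at 23.0, 31.6 and 35.7 FPKM in CryDKO and 1.28, 7.43 and 58.9 in WT. Of the 11 WT libraries 10 were below all CryDKO libraries, but the highest value of both groups was WT library 1 of ZT24, and the difference was 1.90 ± 0.26 (adjusted p = 3.80e-08). Uqcr11 (1.61 ± 0.34), the ATP synthase delta subunit Atp5d (chr10:80138632-80145818, plus strand; 1.70 ± 0.26) and Cox8a (0.54 ± 0.18) also passed. Across the 75 genes the difference followed GC content with r = 0.64, a description over genes. After correction 31 genes were lower and 13 higher, with 23 and 8 of them shared with the uncorrected calls and 1 gene turned from lower to higher. Cox8a (0.05, adjusted p = 0.556) and Sdhd (−0.56 uncorrected, −0.23 and adjusted p = 0.0516 corrected) did not pass with it, and Sdhd was also lost without restricted WT library 2 of ZT16 (adjusted p = 0.0793).

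**Figure D2:**
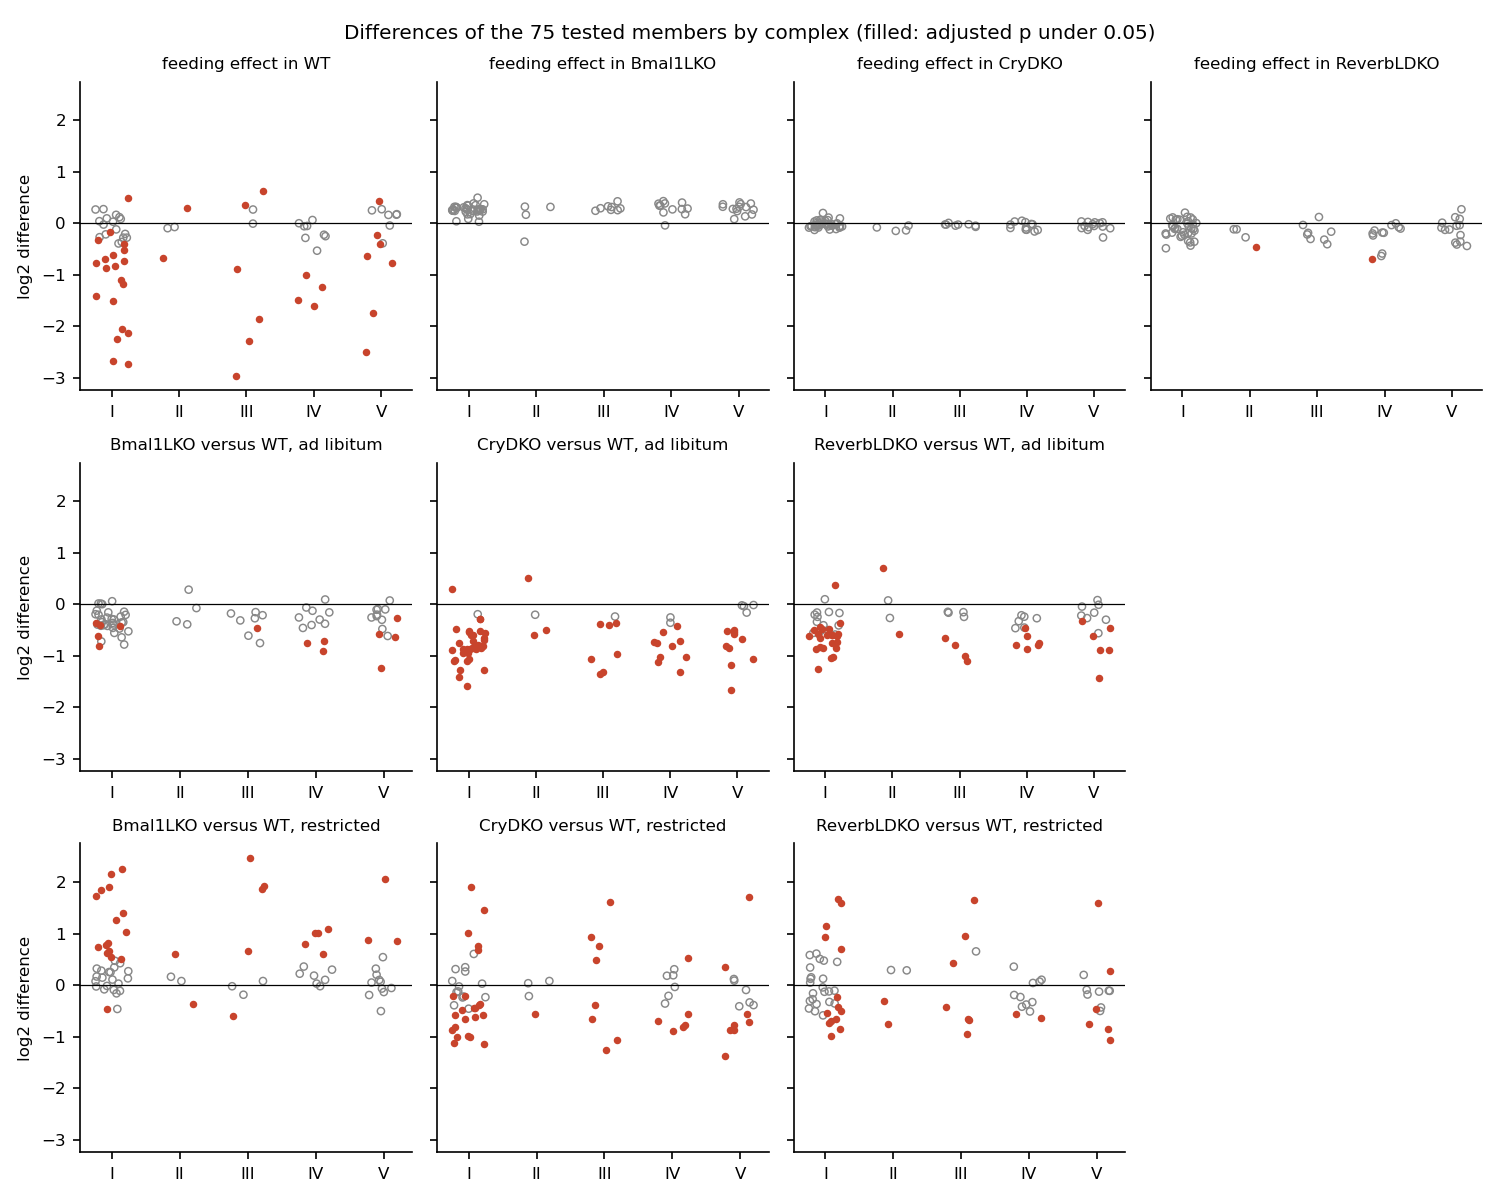
Log2 difference of each of the 75 tested genes in the comparisons, by complex (mutant minus WT, or restricted minus ad libitum, in FPKM plus 1); each point is a gene, filled where its adjusted p is under 0.05, and the black line marks 0. Nearly all points of CryDKO versus WT ad libitum lie below 0, with medians from −0.84 in complex I to −0.35 in complex II.

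ReverbLDKO livers under ad libitum feeding also had lower levels of many subunits than WT livers. There 39 of the 75 genes were lower and 2 higher than in WT, against 23.9% of all genes lower and 20.8% higher, with a median difference of −0.50. The lower genes were 22 in complex I, 1 in complex II, 4 in complex III, 6 in complex IV and 6 in complex V. Sdha stood at 155, 166 and 178 FPKM in ReverbLDKO against 41.2, 102 and 172 in WT. Of the 12 WT libraries 11 lay below all ReverbLDKO libraries, and the difference was 0.70 ± 0.13 (adjusted p = 4.64e-05) and 0.73 after correction. Ndufs1 was the other higher gene (0.36 ± 0.07, adjusted p = 6.92e-05). Atp5j2 stood at 18.5, 19.5 and 26.8 FPKM against 27.5, 58.2 and 294, without overlap (−1.44 ± 0.24, adjusted p = 7.26e-06). Cox8a, a small complex IV subunit in its liver form, stood at 198, 218 and 256 FPKM against 261, 360 and 1182, also without overlap (−0.86 ± 0.17, adjusted p = 1.15e-04). Ndufa7 fell by 1.26 ± 0.30 and Uqcr11 by 1.11 ± 0.33. Sdhd fell by 0.57 ± 0.20 (adjusted p = 0.0206), a call lost without ad libitum WT library 2 of ZT16 (−0.38, adjusted p = 0.0517) and after correction (−0.20, adjusted p = 0.0868). After correction 26 genes were lower and 4 higher. With libraries scaled to the same sum, 12 were lower and 7 higher, and 25 genes passed with the compared groups fitted alone.

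Under restricted feeding ReverbLDKO had 21 genes lower and 10 higher than WT. Over all genes 24.2% were lower, near the share of the 75, and 28.3% were higher. The lower genes were 9 in complex I, 2 in complex II, 4 in complex III, 2 in complex IV and 4 in complex V, and the higher ones 5, 0, 3, 0 and 2. Ndufa4 (−0.99 ± 0.25), Atp5h (−1.06 ± 0.22), Uqcrh (−0.96 ± 0.27), Sdhd (−0.75 ± 0.21) and Cox7a2 (−0.64 ± 0.23) were lower. Cox7a2 did not pass without restricted WT library 2 of ZT16 (adjusted p = 0.0687). Ndufs7 (1.66 ± 0.26), Uqcr11 (1.64 ± 0.34) and Atp5d (1.59 ± 0.26) were higher. After correction 19 were lower and 19 higher, and with libraries scaled to the same sum 21 and 22. With library weights 58 genes passed. Without WT ad libitum library 2 of ZT16, which enters the shared spread of the fit, 30 were lower and 17 higher.

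Bmal1LKO livers under ad libitum feeding had fewer calls. Of the 75 genes, 13 were lower and none higher than in WT, against 10.1% of all genes lower and 14.8% higher, and the median difference was −0.34. The 13 were 5 in complex I, 1 in complex III, 3 in complex IV and 4 in complex V. Atp5j2 stood at 18.9, 21.8 and 35.7 FPKM in Bmal1LKO and 27.5, 58.2 and 294 in WT. Of the 6 Bmal1LKO libraries 4 lay below all WT libraries, and the difference was −1.24 ± 0.26 (adjusted p = 3.73e-04). Cox8a stood at 187, 205 and 241 FPKM against 261, 360 and 1182, without overlap (−0.92 ± 0.19, adjusted p = 2.99e-04). Uqcrc1 fell by 0.47 ± 0.15 (adjusted p = 0.0165), a call lost without Bmal1LKO ZT8 (adjusted p = 0.0566) or ZT20 (adjusted p = 0.0517). Ndufa13 was at the threshold (−0.82 ± 0.31, adjusted p = 0.0493) and lost its call when any 1 of 54 of the 67 libraries was left out. The count itself moved with single libraries: it was 23 without WT library 2 of ZT12, 6 without Bmal1LKO ZT8, 6 without ZT20 and 8 without ZT24. After correction 19 genes were lower and 1 higher, with 11 lower genes shared. With libraries scaled to the same sum, 5 were lower and 3 higher, and 22 genes passed with median-of-ratios scaling and 29 with library weights.

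Under restricted feeding the direction was the other way. In Bmal1LKO 28 of the 75 genes were higher and 3 lower than in WT, against 27.8% of all genes higher and 11.3% lower, with a median difference of 0.27. Higher genes were 15 in complex I, 1 in complex II, 4 in complex III, 5 in complex IV and 3 in complex V. Ndufs7 stood at 33.1, 41.6 and 44.8 FPKM in Bmal1LKO and 1.28, 7.43 and 58.9 in WT, where all libraries but that of ZT24 library 1 were lower (2.25 ± 0.28, adjusted p = 1.80e-08). Uqcr11 (2.48 ± 0.37), Atp5d (2.06 ± 0.28) and Cox8a (1.09 ± 0.19) were also higher. Ndufs1 was lower, at 16.7, 18.3 and 19.7 FPKM against 20.6, 23.9 and 32.2, without overlap (−0.46 ± 0.08, adjusted p = 5.22e-06). Uqcrb, which lies at the ubiquinone site of complex III, was lower (−0.61 ± 0.19, adjusted p = 0.00762). In complex II, Sdhb was higher (0.61 ± 0.20, adjusted p = 0.0131) and Sdha lower (−0.38 ± 0.15, adjusted p = 0.0382). Neither complex II call held after correction (adjusted p = 0.118 and 0.0848). Sdhb was lost without WT ZT12 library 2 or Bmal1LKO ZT8, and Sdha without any of 8 libraries (WT ZT8 library 1, ZT12 library 2, ZT20 libraries 1 and 2, and Bmal1LKO ZT4, ZT8, ZT16 and ZT20). After correction 24 genes were higher and 9 lower, with 2 genes turned from higher to lower, and 19 genes passed with the compared groups fitted alone.

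**Figure D3:**
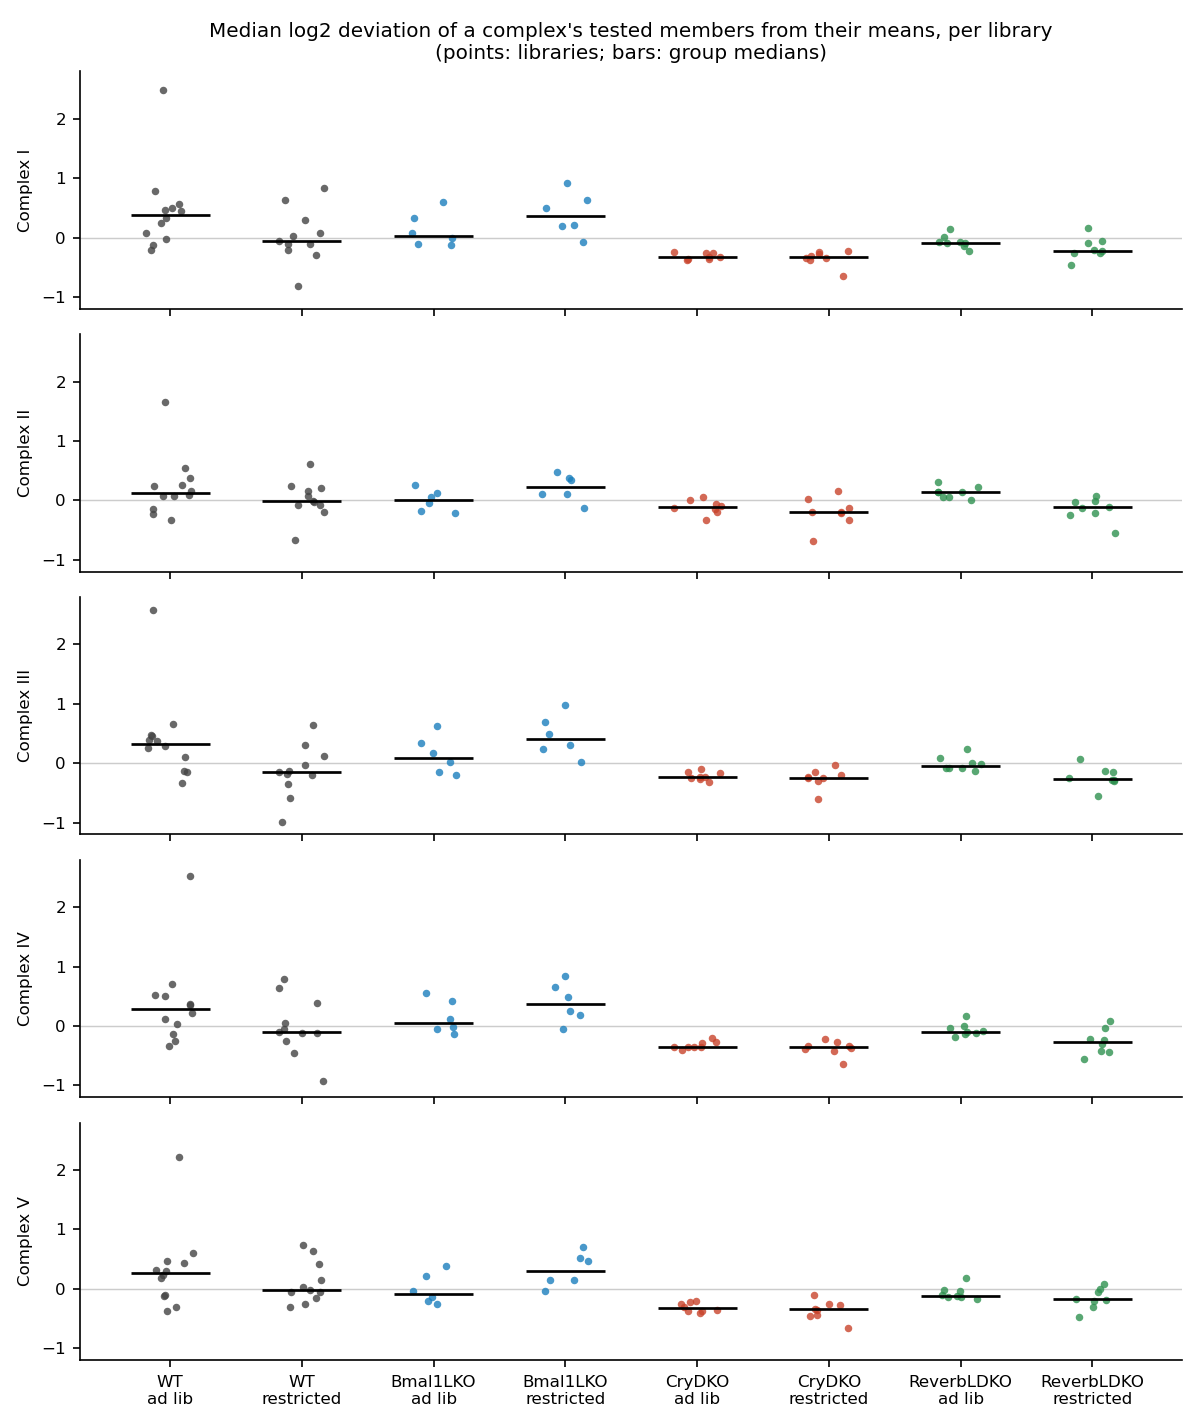
For each library, the median log2 deviation of the tested genes of a complex from their means over all libraries, with 1 panel per complex; points are libraries and bars group medians. In all 5 panels 1 ad libitum WT library (ZT16 library 2) lies far above the rest, at 2.48 in complex I, while the ad libitum CryDKO libraries lie between −0.41 and 0.05.

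**Figure D4:**
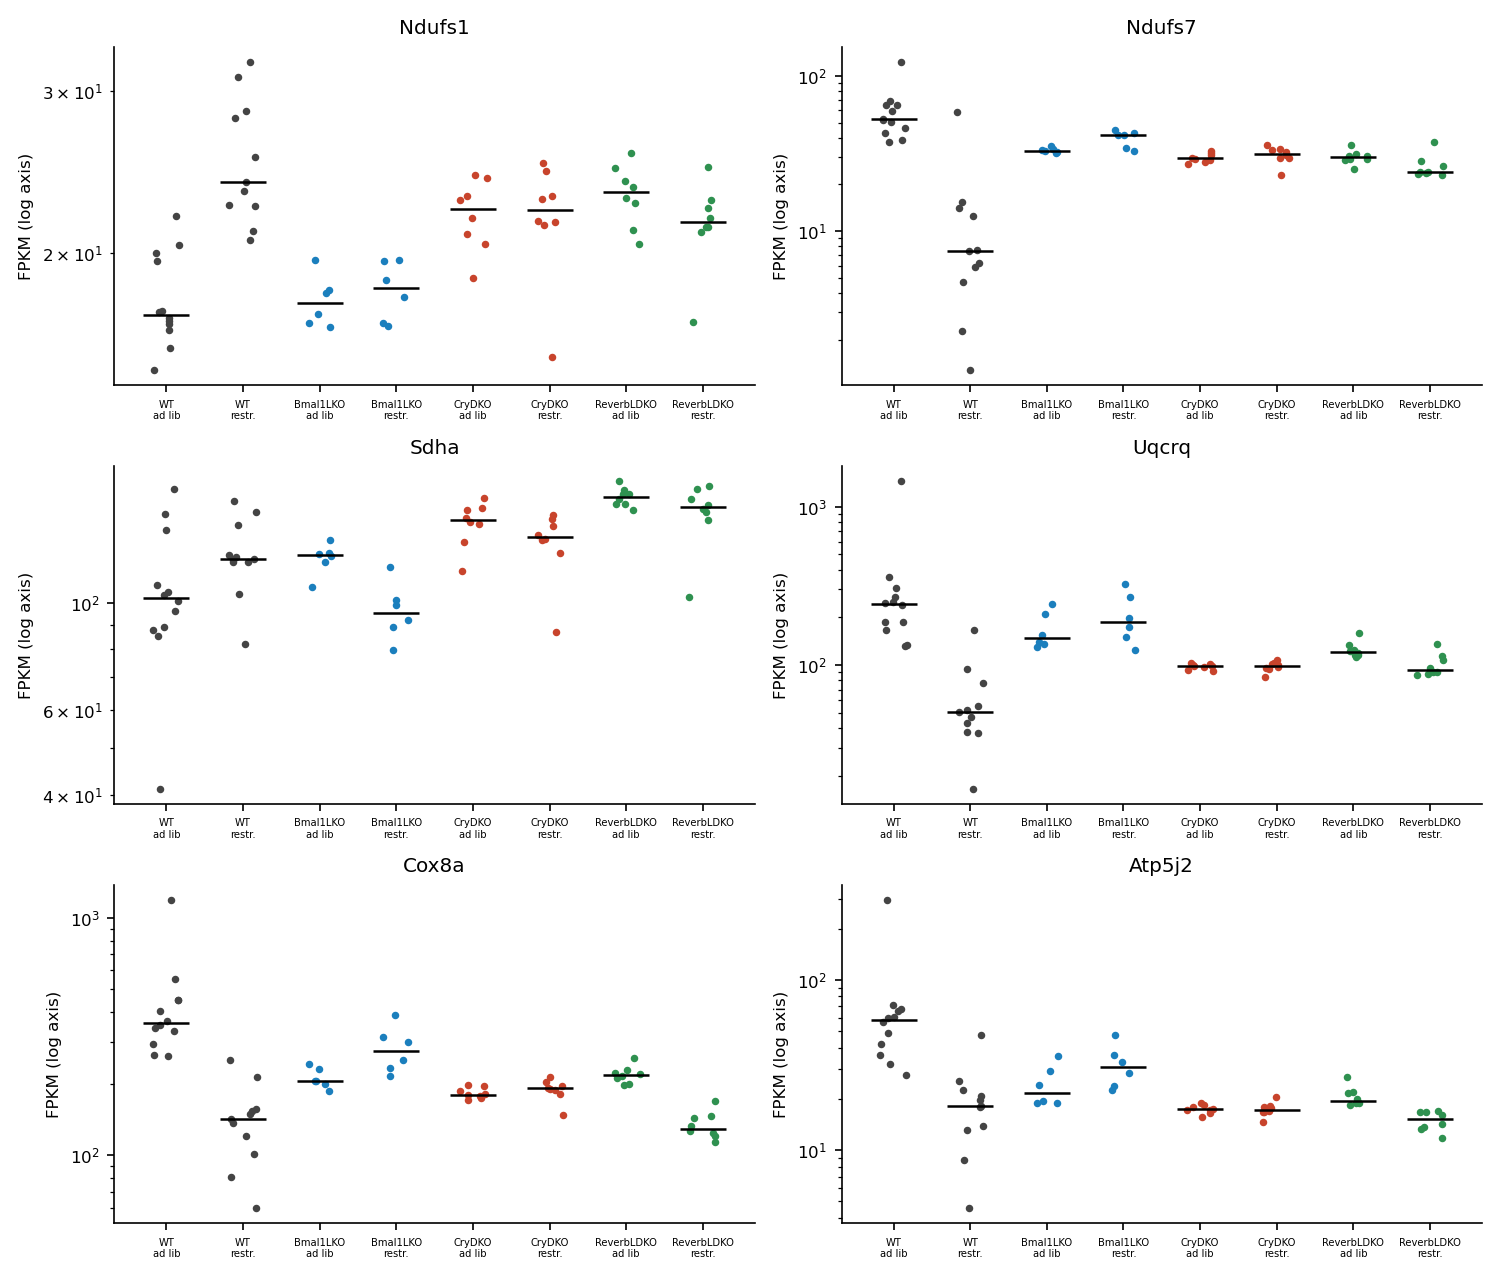
FPKM in each library, on a log axis, of Ndufs1, Ndufs7, Sdha, Uqcrq, Cox8a and Atp5j2 in the 8 groups; points are libraries and bars group medians. WT spreads more widely than the mutants, and restricted WT is low for Ndufs7 (median 7.43 FPKM) but high for Ndufs1 (median 23.9).

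Within WT, more of these genes were lower than higher under restricted feeding. Of the 75 genes, 34 were lower and 5 higher under restricted than under ad libitum feeding, against 35.4% of all genes lower and 28.6% higher, and the median difference was −0.28 against −0.03. Complex I had 19 lower and 1 higher, complex II 1 and 1, complex III 4 and 2, complex IV 4 lower, and complex V 6 lower and 1 higher. Ndufa4l2 and Cox8a were the 2 genes whose restricted libraries all lay below the ad libitum ones, as 1.64% of all genes did. After correction Ndufa4l2 turned to 0.52 higher (adjusted p = 0.011).

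Uqcr11, a small subunit of complex III, stood at 6.36, 35.2 and 273 FPKM under restricted and 142, 281 and 1583 under ad libitum feeding. Of the 11 restricted libraries 10 lay below all ad libitum ones, and the log2 difference was −2.98 ± 0.30 (adjusted p = 1.52e-11). Ndufs7 stood at 1.28, 7.43 and 58.9 FPKM against 37.7, 52.5 and 122. Only the restricted library 1 of ZT24 reached the ad libitum range, and the difference was −2.73 ± 0.23 (adjusted p = 1.12e-13). Atp5d stood at 6.20, 24.4 and 153 FPKM against 117, 141 and 238 (−2.51 ± 0.23, adjusted p = 7.20e-13). Cox8a stood at 60.2, 142 and 253 FPKM against 261, 360 and 1182, without overlap (−1.61 ± 0.16, adjusted p = 6.38e-12). Cox4i1 fell by 1.01 ± 0.24, Uqcrc1 by 0.90 ± 0.12, Ndufv1 by 0.88 ± 0.15, Sdhb by 0.68 ± 0.16 and Atp5a1 by 0.23 ± 0.07. Atp5b did not pass (−0.05 ± 0.08, adjusted p = 0.599). Ndufs1 stood at 20.6, 23.9 and 32.2 FPKM under restricted against 14.9, 17.1 and 21.9 under ad libitum feeding, with 9 of 11 restricted libraries above all ad libitum ones, and was higher by 0.49 ± 0.06 (adjusted p = 6.59e-09). Uqcrb was higher by 0.62 ± 0.15 (adjusted p = 4.83e-04) and Sdha by 0.29 ± 0.12 (adjusted p = 0.0309). The Sdha call was lost without any of 6 libraries (ad libitum ZT4, ZT8 and ZT16 library 2, and restricted ZT8 and ZT20 library 1 and ZT12 library 2), and without the ZT16 library the difference was 0.17.

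These WT differences followed GC content, with r = −0.63 across the 75 genes, and r = −0.12 after correction. Uqcr11, Ndufs7, Atp5d and Cox8a have exons of 58.5% to 59.8% GC, and Ndufs1 of 45.1%. The corrected differences were −1.78 for Uqcr11, −1.58 for Ndufs7, −1.42 for Atp5d, −0.57 for Cox8a, 0.23 for Ndufs1 and 0.25 for Uqcrb, all with adjusted p under 0.05. Sdha (adjusted p = 0.131), Sdhb (adjusted p = 0.065), Ndufv1 (adjusted p = 0.25) and Cox4i1 (adjusted p = 0.899) did not pass with it, and Atp5a1 turned to 0.26 higher (adjusted p = 3.92e-04). After correction 32 genes were lower and 14 higher, with 24 and 2 shared with the uncorrected calls and 4 turned from lower to higher. The replicates also differed. In Ndufs7 the restricted libraries lay at 7.43 to 58.9 FPKM in replicate 1 and 1.28 to 7.56 in replicate 2. With replicate 1 left out 44 genes were lower and 4 higher and the median was −0.58, while with replicate 2 left out 18 were lower and 4 higher and the median was 0.01. Without ad libitum library 2 of ZT16, 32 were lower and 14 higher. What the GC slope contributes beyond the correction was not tested.

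**Figure D5:**
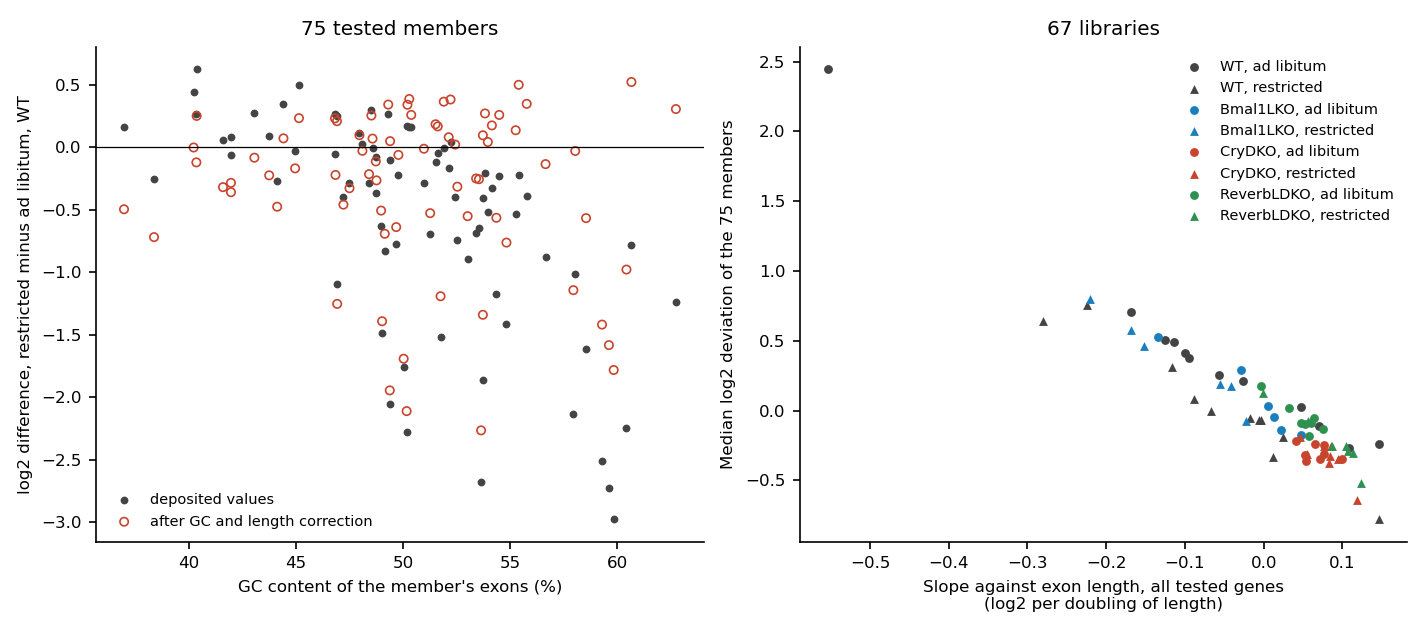
Left, log2 difference between restricted and ad libitum WT against the GC content of the gene's exons for the 75 tested genes, as deposited (filled) and after correction (open); right, for each of 67 libraries, the median log2 deviation of the 75 genes against the slope of all tested genes on exon length. The deposited differences fall with GC content (r = −0.63), and library medians fall with the length slope (r = −0.95).

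In the mutants few or none of these genes passed the test for feeding, counts that depended on the model. In CryDKO none of the 75 passed, and 1 had an unadjusted p under 0.05. Over all genes 0% were higher and 0.0201% lower by limma, and with limma's library weights, which count noisy libraries less, 1 of the 75 passed. The differences in CryDKO ran from −0.28 to 0.20. In Bmal1LKO none passed by limma, with 2 at an unadjusted p under 0.05 and a median of 0.27, and over all genes 0.0201% were higher and 0.0201% lower. With library weights 9 of the 75 passed there. In ReverbLDKO 2 genes were lower and none higher, near the background of 2.25% lower and 1.08% higher. The count was 33 with library weights, 20 with the ReverbLDKO groups fitted alone and 11 with libraries scaled to the same sum. The shares of all genes under these settings are not given here. Cox8a stood at 113, 130 and 169 FPKM under restricted and 198, 218 and 256 under ad libitum feeding, without overlap (−0.71 ± 0.19, adjusted p = 0.0249). Sdhc stood at 39.9, 48.3 and 58.0 FPKM against 59.0, 68.3 and 71.6, also without overlap (−0.46 ± 0.13, adjusted p = 0.0317). In 6 genes (Ndufa1, Sdhc, Cox8a, Cox5b, Atp5g3 and Atp5j2) every restricted library lay below every ad libitum one, as 1.96% of all tested genes did. None of the 75 lay wholly above, against 0.904% of all tested genes. Sdhc lost its call (adjusted p = 0.0543 to 0.0772) without any of 11 ReverbLDKO libraries, namely ad libitum ZT6, ZT9, ZT12, ZT15, ZT21 and ZT24 and restricted ZT6, ZT9, ZT12, ZT18 and ZT24. Cox8a lost it (adjusted p = 0.0522 to 0.0648) without ad libitum ZT9 or ZT21 or restricted ZT6, ZT12, ZT18 or ZT24. A p that misses the threshold does not show that levels were alike.

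The difference between genotypes in the response to feeding was tested directly. It passed in 31 of the 75 genes, a share near the 47.1% of all genes, with 16 in complex I, 3 in complex II and 4 in each of the others. The smallest adjusted p-values were 2.83e-09 for Ndufs7, 2.12e-08 for the complex I subunit Ndufb7, 2.85e-08 for Atp5d and 4.54e-08 for Cox8a. Ndufs7 medians under ad libitum and restricted feeding were 52.5 and 7.43 FPKM in WT, 33.0 and 41.6 in Bmal1LKO, 29.5 and 31.6 in CryDKO, and 30.0 and 24.1 in ReverbLDKO. The restricted median lay below the ad libitum one in WT and ReverbLDKO and above it in the other two. With the correction 32 genes passed, and with library weights 70.

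Time of day was followed with a 24 h cosine in each group, tested jointly over both feeding regimes. In WT 27 of the 75 genes passed, near the 41.5% of all genes, with 13 in complex I, 4 in complex III, 2 in complex IV and 8 in complex V. Cox5a, a complex IV subunit on the matrix side, had ad libitum means of 220 FPKM at ZT12 and 738 at ZT16, where the 2 libraries gave 462 and 1014. Its adjusted p was 0.0162. Atp5c1, the gamma subunit that turns inside ATP synthase (adjusted p = 0.0174), Ndufb2 (0.0209, adjusted) and Atp5h (0.0237, adjusted) followed. With the GC and length correction Cox5a did not pass by limma (adjusted p = 0.116), while Atp5c1 (0.00487, adjusted), Ndufb2 (0.0262) and Atp5h (0.0290) did. The ad libitum ZT16 means and fits include the library that stood apart. Length slopes of WT libraries were 0.108 to 0.147 at ZT12 and −0.554 to −0.116 at ZT16. Their part in the time course was not tested. The fitted peaks of the 27 genes had a circular median of ZT18.6 under both ad libitum and restricted feeding. They ran from ZT11.4 to ZT19.8 under ad libitum feeding and from ZT13.1 through ZT24 to ZT2.2 under restriction, where 5 genes (Ndufa7, Ndufs7, Ndufs8, Ndufv3 and Atp5d) peaked after ZT24. The median peak-to-trough ranges of the 27 were 1.19 log2 under ad libitum and 0.69 under restricted feeding. The count rested on single libraries. It was 7 without ad libitum ZT4 library 1, 13 without ad libitum ZT8 library 1, 12 without restricted ZT4 library 1 and 16 without restricted ZT24 library 1. It was 46, 47 and 42 without ad libitum ZT4 library 2, ZT20 library 1 and ZT20 library 2, and 57, 45 and 53 without restricted ZT16 library 1, ZT16 library 2 and ZT20 library 2. It was 4 without replicate 1, 1 without replicate 2 0 in a fit of the WT libraries alone and 61 with library weights. In Bmal1LKO and ReverbLDKO none passed by limma, with 0 and 2 at an unadjusted p under 0.05, against 1.07% and 2.07% of all genes. In CryDKO 1 passed, against 4.25%. It was Atp5s, named for ATP synthase but not a core subunit, which ran from 2.63 FPKM at ZT15 to 4.63 at ZT9 under ad libitum and from 1.52 at ZT24 to 6.14 at ZT12 under restricted feeding (adjusted p = 0.0333). It lost its call without ad libitum ZT18 or restricted ZT3, ZT9, ZT12, ZT18 or ZT24 (adjusted p = 0.0503 to 0.189).

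Other genes of oxidative phosphorylation were counted from lists. Of 47 assembly factors tested, which help build the complexes, 27 were lower and 4 higher in CryDKO than WT ad libitum, against 30.7% of all genes lower and 24.8% higher. In WT feeding 19 were lower and 10 higher, near the 35.4% and 28.6% of all genes. After correction 23 were lower and 8 higher in CryDKO. Of 20 electron carriers and entry enzymes, 12 were lower and 3 higher in CryDKO ad libitum. Of 74 mitochondrial ribosomal protein genes, whose products translate the mitochondrial subunits, 68 were lower in CryDKO and 59 in ReverbLDKO ad libitum with none higher, and their median in CryDKO was −0.66. After correction 62 were lower and 1 higher in CryDKO and 57 lower in ReverbLDKO, with a CryDKO median of −0.42. The cytosolic ribosomal protein genes had 40 of 64 lower in each of those comparisons, with medians of −0.63 and −0.69. After correction 24 were lower and 9 higher in CryDKO (median −0.28) and 33 lower and 3 higher in ReverbLDKO (median −0.36). Of the 13 subunits made from mitochondrial DNA, 7 were tested. In WT feeding all 7 were higher under restriction (median 0.75), the opposite direction from most nuclear subunits, and 2 were after correction. In CryDKO ad libitum 2 of the 7 were higher, and 5 after correction. mt-Nd1 differed by 0.97 with WT feeding (adjusted p = 7.42e-08). Of 12 regulators of mitochondrial biogenesis tested, 6 were higher and 4 lower with restriction in WT, and 3 were higher and 4 lower after correction. Without the correction Esrra, the gene of ERR alpha, fell by 1.98 ± 0.20 in that comparison (adjusted p = 1.33e-11). Gabpa, which encodes the DNA-binding GABP subunit, rose there by 0.57 ± 0.11 (adjusted p = 7.74e-06). The values of mt-Nd1, Esrra and Gabpa are all uncorrected, and whether they hold with the correction is not given here. No gene of any list passed for feeding in CryDKO or Bmal1LKO.

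Markers of the liver and of other cell types differed between some groups and libraries. The 8 hepatocyte markers, all detected, summed to medians of 60610 FPKM in ad libitum WT, 59609 in restricted WT, 65538 and 65410 in ad libitum and restricted CryDKO, 49092 and 58686 in ReverbLDKO, and 37509 and 35182 in Bmal1LKO. The 5 adipocyte markers summed to 0.49 to 45.6 FPKM in ad libitum WT (median 14.9), highest in ZT16 library 2, and the medians of the other groups lay between 0.14 (restricted CryDKO) and 0.96 (restricted WT), apart from restricted Bmal1LKO, whose libraries ran from 0.13 to 2.89, and Lep was at 0 in every restricted CryDKO library. The 5 erythroid markers had medians of 518 FPKM in ad libitum WT 1200 in ad libitum CryDKO and 919 in restricted CryDKO, and reached 3085 in that same WT library. The 7 skeletal muscle markers had group medians of 0.43 to 1.29 FPKM, with up to 3 of the 7 at 0 throughout a group, and 1 library, restricted CryDKO ZT9, reached 21.8. The 11 pancreas markers had group medians of 47.0 to 112 FPKM with single libraries up to 4725 (ad libitum WT ZT16 library 1). In restricted ReverbLDKO 8 of the 11 were at 0 in every library, and in ad libitum CryDKO 5 were. The part of these cells in the differences of the respiratory genes was not tested.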

How the data were processed

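The authors deposited 1 table of FPKM values per gene for 67 liver libraries. Per the labels' protocols, RNA was extracted with RNeasy Mini kits and libraries were made from 1 ug with the TruSeq stranded mRNA kit; per the submitters' processing notes, STAR, featureCounts, DESeq2 and the build GRCm38 were used, with roles and versions not given in the sources used here. Depth was recovered from the steps of low FPKM values (83.7% to 87.5% of them whole within 0.1 reads) and not used in tests, because not all values came out whole. The depth factor recovered from these steps was not the recovered depth itself. It was 5.38 M for 11.19 M reads in ad libitum WT library 2 of ZT16. In restricted CryDKO ZT3 it was 16.62 M for 27.63 M reads. Groups came from the sample titles. Of the 45808 genes, 42654 matched the GENCODE vM21 annotation, which gave exon length, GC content and overlaps.

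The 9958 genes averaging 1 FPKM or more over the libraries were tested on log2(FPKM + 1), so fold changes are on that scale and understate the change of low genes. One limma model (3.58.1, R 4.3.3, with a variance trend) of all 67 libraries held each group's mean and 24 h cosine and sine of time. P-values were Benjamini-Hochberg adjusted over all tested genes, with a threshold of 0.05, and errors are SE. The correction for GC content and length fitted natural splines (5 df each) per library. Tables and figures were made with Python 3.11.15, pandas 2.3.3, numpy 2.4.6 and matplotlib 3.10.9. On data simulated for the feeding effect in WT (9958 genes), 75 of 100 genes changed by 0.5 log2 and 99 of 100 changed by 1 log2 were recovered, with 7 unchanged genes called. The simulated noise was normal and independent between genes and libraries. It held no dependence on GC content or length and no library standing apart. The simulation therefore checks the fit and does not gauge false calls in these libraries.

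The genes and lists were chosen with earlier results of these data known. Named with full statistics are, per comparison and complex, the gene with the greatest difference in each direction among those that passed (mean of at least 5 FPKM), the 4 with the smallest p for time and genotype difference, and isoforms, Sdh genes and catalytic subunits.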

Additional observations from a re-analysis of the deposited data

Results flagged for a closer look

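Single libraries lay far from the rest of their group in 17 of 108 groups of 6 or 8 values examined with Dixon's test. Chance gives about 1 in 20 only where the values are independent. Here the same libraries recur across complexes and genes, and the genes were picked for their differences, so the count is a description. Restricted CryDKO ZT3 was the lowest of its group for complexes I (median log2 deviation −0.655), III (−0.609) and IV (−0.639), and for Ndufs1 (15.41 FPKM), Ndufs7 (23.04), Sdha (86.98), Uqcr11 (81.07), Cox8a (148.15) and Atp5d (61.17). Ad libitum ReverbLDKO ZT9 was the highest for complex V (median log2 deviation 0.177), Uqcr11 (164.6 FPKM) and Atp5j2 (26.77). Restricted ReverbLDKO ZT18 was the lowest for Ndufs1 (16.81 FPKM), Sdha (102.64) and Sdhb (74.49), and ZT15 was the highest for Ndufs7 (37.58). Ad libitum CryDKO ZT21 was the lowest for Uqcrb (37.76 FPKM).

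The feeding difference itself differed between genotypes in 31 of the 75 genes by limma's test of all genotypes together. Over all tested genes the share was 47.1%, so the count does not set these genes apart. Adjusted p-values were 2.83e-09 for Ndufs7, 2.12e-08 for Ndufb7, 2.85e-08 for Atp5d and 4.54e-08 for Cox8a.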

How the results depend on the processing

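Precision is limited by 1 library per time in the mutants. Low isoforms stood near 0 at depths of 9.32 to 36.79 M reads, and the part of depth in this was not tested. Counts below are of the 75 genes called by limma, and the cause of each shift was not tested. Shares of all genes under each setting are not given here, so a shift may be common to all genes. For feeding in ReverbLDKO (2), the count was 1 with median-of-ratios scaling or no time terms, 11 with the same sum of FPKM, 5 with the GC and length correction, 33 with library weights, 20 with the compared groups alone and 8 without WT replicate 2. With library weights it was 9 for feeding in Bmal1LKO, 1 for feeding in CryDKO, 29 for Bmal1LKO versus WT ad libitum, 58 for ReverbLDKO versus WT restricted, 70 for the genotype difference, and 61, 5, 6 and 3 for rhythm in WT, Bmal1LKO, CryDKO and ReverbLDKO. Bmal1LKO versus WT ad libitum (13) gave 22 with median-of-ratios scaling, 8 with the same sum and 20 with the correction, and Bmal1LKO restricted (31) gave 19 with the compared groups alone. ReverbLDKO ad libitum (41) gave 19 with the same sum and 25 with the compared groups alone. Rhythm without the low-value filter gave 4 in WT and 0 in CryDKO, with the compared groups alone 0 in WT, 2 in CryDKO and 3 in ReverbLDKO, and with the correction 1 in Bmal1LKO, 5 in CryDKO and 1 in ReverbLDKO. The correction without ad libitum WT ZT16 library 2, chosen after seeing the data, gave 7 for feeding in ReverbLDKO, 26 for ReverbLDKO ad libitum, and 2, 7 and 3 for rhythm in Bmal1LKO, CryDKO and ReverbLDKO.

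Leaving out 1 library, or WT replicate 1 or 2, gave 22 to 48 for feeding in WT, 0 in Bmal1LKO, 0 in CryDKO and 0 to 8 in ReverbLDKO, 6 to 33 and 21 to 38 for Bmal1LKO versus WT ad libitum and restricted, 55 to 70 for CryDKO ad libitum and 30 to 60 for ReverbLDKO ad libitum. It gave 28 to 47 for ReverbLDKO restricted, 23 to 39 for the genotype difference, 1 to 57 for rhythm in WT, 0 to 2 in CryDKO and 0 to 2 in ReverbLDKO.

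No label says that same-numbered WT libraries belong together, and they were not treated as pairs: their replicate differences under the 2 feeding regimes correlated at 0.4, 0.63, 0.61 and 0.54 at ZT4, 8, 16 and 20 but at −0.29 at ZT24. A replicate block gave 40 for feeding in WT, 18 and 32 for Bmal1LKO ad libitum and restricted, 44 for ReverbLDKO ad libitum and 36 for rhythm in WT, and moved none of the 83 named values across the threshold or across 0. The replicate block with the correction gave 6 for feeding in ReverbLDKO, 21 for Bmal1LKO ad libitum, and 1, 6 and 1 for rhythm in Bmal1LKO, CryDKO and ReverbLDKO.

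Of the 83 named values, those that changed sign were few. Cox4i1 with WT feeding was 0.133 under the added correction. Atp5a1 with WT feeding was 0.258 under the correction, 0.254 with the block too and 0.245 under the added one. Atp5b with WT feeding was 0.026 with median-of-ratios scaling, 0.038 with the same sum, 0.166 with the correction and 0.163 with the block too. It was 0.095 without WT replicate 2 and 0.188 under the added correction, but stayed below 0 without WT replicate 1 (−0.177). In CryDKO ad libitum Atp5a1 was 0.23 with the same sum, 0.198 with the correction, 0.198 with the block too and 0.185 under the added one, and Atp5b was 0.107 with the same sum. With the correction 15 named calls were lost, with the compared groups alone 10 and with the same sum 8. Calls gained were 4, 3 and 0.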
